A study of Drosophila melanogaster with 28 samples.

Results

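Whole pupae of the wild type strain Canton S (CS) were compared between the sexes at 48 hour APF (after puparium formation), on 4 of the 28 arrays of the study. On each of these arrays, cDNA from CS females and CS males was hybridized together to spotted oligonucleotides, and each value is a log2 ratio of female over male for 1 array element (a spot with its own oligonucleotide). A positive value is higher in females and a negative value is higher in males. Of the 15744 elements not labeled as controls, 8298 had values on all 4 CS arrays, 2392 on 3, 1299 on 2, 821 on 1 and 2934 on none. The 10690 elements measured on 3 or 4 of them were tested.

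The CS pupae were collected as white prepupae, aged at 25 degrees and frozen whole, so that gonads and somatic tissues lie in the same RNA, which came from about 30 pupae. Replicates 1 and 2 had females in Cy5, and replicates 3 and 4 had males in Cy5. Comparisons of the same kind from another wild type strain, Berlin, and from *tud* progeny, the offspring of mothers homozygous for *tud*, which lack a germline, served for contrast with CS, with 4 arrays each. Nothing states that replicates of a comparison came from separate cultures, so that the *q* values measure the spread between these arrays. The *tud* progeny also differ from CS in their mothers' genotype and in stock background, which cannot be told apart from the missing germline. Female but not male *tud* progeny inherit the fathers' X chromosome, which carries *y*, *w* and a GFP transgene, so that the sexes of *tud* progeny differ in X-linked genotype, the yellow gene included.

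The direction of the ratios was taken as female over male because, of the elements that the study lists with female-biased and male-biased somatic transcript levels, 318 of 328 and 97 of 100 had the matching sign in CS. That list was chosen with these arrays among others. The arrays carried 12023, 11114, 9147 and 11503 values, with medians between -0.030 and 0.020. Correlations between arrays lay between 0.774 and 0.894 across elements. Replicate 3 stood apart: it had the fewest values, 46 values over 3 that were found on no other array (3 on replicate 2 and 0 on replicates 1 and 4), and the highest ratio, 12.1. Of the 21 tested elements among these 46, 17 were called higher in females. Names were available for 2234 of the tested elements.

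In Drosophila, the number of X chromosomes sets whether Sex lethal (Sxl) protein is made. Sxl directs the splicing of transformer (tra), and tra in turn that of doublesex (dsx), whose sex-specific proteins shape the soma. Males lack Sxl and raise transcription of their single X chromosome through a complex that contains the roX RNAs. The testis of the mid pupa already holds spermatocytes, which express a large set of genes used in few other cells, while the ovary has not yet made mature eggs.

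CS pupae of both sexes differed in many transcripts, and the differences toward males were much larger than those toward females. A moderated test in limma with Storey *q* values below 0.15 called 4519 elements (42.3%), of which 2067 (19.3%) were higher in females and 2452 (22.9%) were higher in males. The median size of the difference was 0.40 (log2) among elements called in females and 1.03 among those called in males. Differences of at least 1 toward males were found in 1246 elements and toward females in 51. At a size of at least 2, there were 667 toward males and 8 toward females, and at a size of at least 4, 134 and 0. The sign was the same on every CS array with a value for 2230 (90.9%) of the elements called in males and 1457 (70.5%) of those called in females.

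The number of calls moved with single arrays. Without replicates 1, 2, 3 and 4 in turn, 486, 827, 2477 and 931 elements were called in females, and 1518, 1783, 2775 and 1665 in males. Means over both orientations of the dyes correlated at 0.856 across elements, and 96.4% of the called elements had the same sign in both. In a bulk sample of whole pupae, fewer cells of a type and less RNA per cell cannot be told apart.

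**Figure D1:**
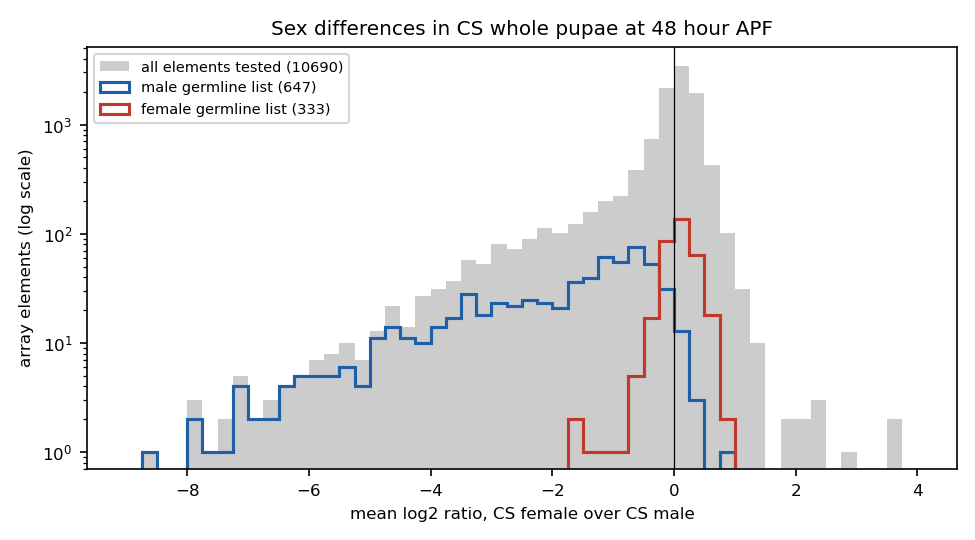
Number of array elements (log scale) by mean log2 ratio of CS females over CS males, for all 10690 elements tested, 647 elements of the male germline list and 333 elements of the female germline list. The tail toward males reaches -8.74, while 8 elements lie at or above 2 toward females.

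Among genes of sex determination and dosage compensation, the roX RNAs were the clearest difference between CS males and females. The ratios of roX1 were -5.20, -4.27, -3.96 and -5.32 on replicates 1 to 4, with a mean of -4.69 ± 0.67 (SD, n = 4; limma *q* = 3.04e-06). Those of roX2 were -3.47, -3.97, -3.53 and -3.75, with a mean of -3.68 ± 0.23 (*q* = 9.32e-07). Both RNAs were far below 0 on each array.

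Sxl, the switch of the hierarchy, was measured by 2 elements that differed. One of them had ratios of 0.78, 0.57, 1.69 and 1.60 and a mean of 1.16 ± 0.57 (*q* = 0.00345). The other had ratios of 0.09, -0.41, 0.96 and 0.61 and a mean of 0.31 ± 0.60, which was not called (*q* = 0.199). In both elements the arrays with males in Cy5 gave the higher ratios, and with a term for the dye in the limma fit both were called higher in females (*q* = 0.000191 and 0.0842). The ratios of tra, the target of Sxl, were 0.77, 0.33, -0.09 and 0.46, and its mean of 0.37 ± 0.36 was called higher in females (*q* = 0.0953) with 1 of 4 arrays below 0.

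The other genes of this list were not called without the dye term. Female lethal d, a cofactor of Sxl in splicing, had a mean of 0.31 ± 0.48 on 3 arrays (*q* = 0.196, and 0.119 with the dye term, where it was called in females). YT521-B, a reader of methylated RNA that acts with Sxl on splicing, had a mean of 0.13 (*q* = 0.304). CG3056, a paralogue of Sxl, had ratios of -0.74 and -1.14 where females were in Cy5 and 0.47 and 0.53 where males were, and it was called in males with the dye term (*q* = 0.134). With that term, 4 of the 8 elements of the list were called in females and 3 in males, against 2 and 2 without it.

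Of the 2452 elements called higher in males, 595 belonged to the study's list of genes with male germline expression. The study chose this list on its time course arrays, which were not analysed here, mainly for levels above those of both CS females and male *tud* progeny. A list of genes with female germline expression was chosen in the same way, for levels in CS females above those of CS males and of female *tud* progeny. The direction of either list here, and a smaller difference in *tud* progeny, are thus what its members were chosen for and no independent evidence. Of the 671 elements of the male germline list, 647 were tested, and 595 (92.0%) of these were called higher in CS males, beside 22.9% of all elements tested. Their median ratio was -1.45, against 0.045 over all elements, and the medians on replicates 1 to 4 were -1.52, -1.45, -1.40 and -1.46. Leaving out replicates 1 to 4 in turn left 497, 535, 565 and 520 calls in males.

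The ratios within the male germline list spread from -8.74 to 0.755. 3 elements of the list were called higher in females, and they are named here after their values were seen. They were CG14852, with 1.22, 1.38, 0.05 and 0.36 on replicates 1 to 4, TpnC4, a troponin C of muscle, with 0.39, 0.29, 0.44 and 0.06, and CG6409, with -0.11, 0.73 and 0.77 on the arrays that measured it. The ratio of CG14852 was higher on both arrays with females in Cy5.

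Spermatogenesis genes showed the same difference, gene by gene. Their elements, and those of the testis copies below, could be named only through the study's tables, the male germline list among them. Their direction is thus no evidence independent of that list. Of the 18 tested elements in a list of genes for sperm structure and meiosis, 17 were called higher in males and none in females, with a median of -3.94. The tektin-family gene Tektin A was the element not called, with ratios of -0.18, -0.49, 0.65 and -0.73 (*q* = 0.309). A further element, for touch insensitive larva B, had too few values to be tested.

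The lowest means of the list were those of Male-specific RNA 98Ca and 84Db and Male-specific-transcript-35Ba. Male-specific RNA 98Ca, a sperm tail protein gene, had -6.55, -6.55, -6.13 and -6.08 on the 4 arrays, with a mean of -6.33 ± 0.26 (*q* = 1.83e-07). Male-specific RNA 84Db, another gene for the sperm tail, had -6.87, -6.27, -5.86 and -6.11, and its neighbours 84Dc and 84Dd had means of -4.98 and -4.88. Male-specific-transcript-35Ba, which encodes a protamine that replaces histones in the sperm head, had -6.11, -6.58, -5.11 and -5.42. On each of these elements the highest CS ratio was below -4.6.

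Male-specific transcript 77F, a histone-like protein of sperm chromatin, had a mean of -4.50 ± 0.35, and Male-specific RNA 87F and 98Cb had means of -5.26 ± 0.19 and -5.35 ± 0.04. Androcam, a calmodulin-like protein of the testis, had a mean of -4.62 ± 0.60, and gonadal a mean of -3.38 ± 0.78. Each of these was called in limma, and the 84D genes lie in a cluster of similar copies whose oligonucleotides may share signal.

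The remaining elements of the list, among them genes that act in meiosis or in the axoneme, the microtubule core of the sperm tail, had ratios nearer to 0. Beta-Tubulin at 85D, the tubulin of the male germline, had -2.18, -2.82, -2.43 and -2.63, with a mean of -2.51 ± 0.28 (*q* = 6.35e-06). Boule, a translational regulator needed to enter the meiotic divisions, had -2.22, -1.03, -1.10 and -2.17, with a mean of -1.63 ± 0.65. Tektin C, a protein of axonemal microtubules, had a mean of -2.51 ± 0.34, and janus A a mean of -0.67 ± 0.20. The elements for Sperm-specific dynein intermediate chain 1, 2 and 3 had means of -0.96, -2.13 and -2.95, and since these genes are near-identical copies their values are uncertain for each copy.

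Testis copies of housekeeping genes, second copies of widely used genes that are known or annotated for expression in the male germline, were higher in males as well. Of 16 tested elements, 15 were called in males and none in females, with a median of -2.67. The element not called was for the ribosomal protein gene RpS15Ab, with 0.34, 0.28, -0.46 and -0.03 (*q* = 0.451). Porin2, a channel of the outer mitochondrial membrane, had too few values to be tested.

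These copies served several functions of the cell. For translation, eIF4E-3, a cap-binding initiation factor, had ratios of -6.17, -5.42, -5.84 and -5.70, with a mean of -5.78 ± 0.31 (*q* = 3.16e-07). The ribosomal protein copies lay nearer to 0, with means of -2.81 for RpS19b, -1.08 for RpS5b and -0.54 for RpL22-like, and each was called. Thioredoxin T, an X-linked redox protein of the testis, had -5.17, -4.60, -4.31 and -5.66, with a mean of -4.94 ± 0.60.

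For mitochondria, Cytochrome c distal, the cytochrome c used in sperm development, had a mean of -3.46 ± 0.22. The import components tomboy20, tomboy40 and Tim17a1 had means of -3.20, -1.76 and -2.53. The chaperonins Hsp60B, Hsp60C and Hsp60D had means of -3.68, -3.25 and -2.93. Hex-t2, a hexokinase, had a mean of -2.33, Prosbeta5R1, a proteasome subunit copy, -1.59, and Roc1b, a ubiquitin ligase subunit, -1.10. Every value that the CS arrays gave for the elements of this paragraph was below -0.5.

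**Figure D2:**
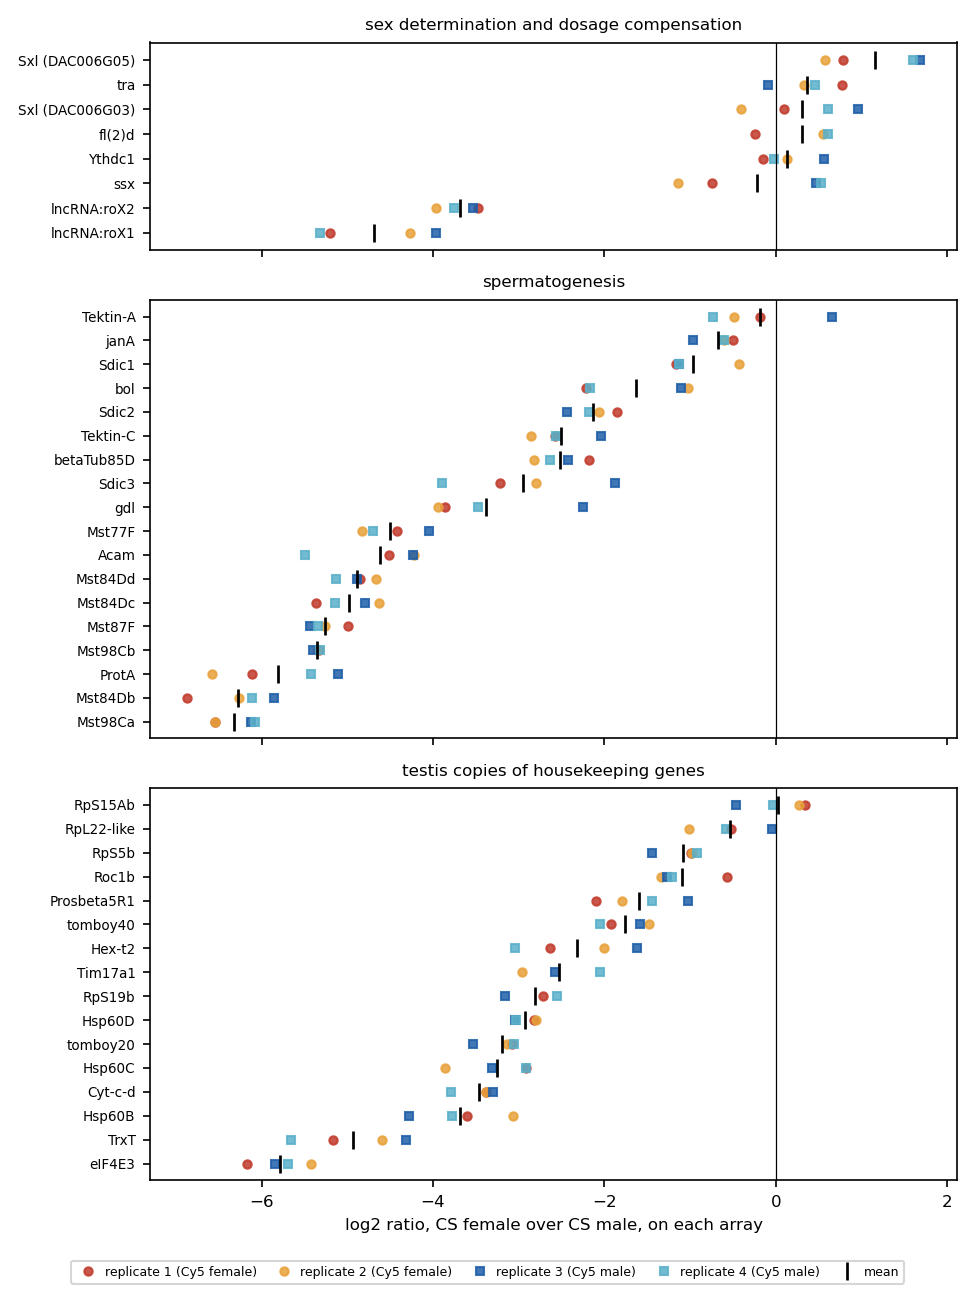
Log2 ratio of CS females over CS males on each array for every tested element of 3 lists, with circles for arrays with females in Cy5, squares for arrays with males in Cy5 and a bar for the mean. Both roX RNAs, 17 of 18 spermatogenesis elements and 15 of 16 testis copies lie to the left of 0.

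The 12 named elements with the largest means toward males, among those with values of the same sign on all 4 arrays, all belonged to the male germline list. Elements could be named only through the study's lists, which apart from the germline lists rest on values in *tud* progeny. Of these 12, 9 had no value on any *tud* array here, so that being named nearly required membership in a germline list. The largest difference was that of CG6372, with -8.60, -9.25, -7.97 and -9.15 and a mean of -8.74 ± 0.59 (*q* = 2.40e-07), or 428-fold. CG31820 followed with -7.98, -7.96, -8.20 and -7.77 and a mean of -7.98 ± 0.18. The remaining 10 were CG4750 (-7.96), CG32064 (-7.32), CG30430 (-7.25), CG9920 (-7.18), CG1288 (-7.14), CG5089 (-7.06), CG4439 (-6.99), CG17376 (-6.80), CG15219 (-6.64) and exuperantia (-6.62). Exuperantia acts in the transport of maternal RNA in the oocyte and is also needed for spermatogenesis. Their order among neighbours is not resolved, since the spread of CG5089 alone ran from -8.61 to -5.50.

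Of these 12 genes, 4 encode sperm leucyl aminopeptidases, abundant proteins of the sperm that resemble peptidases, a family singled out here after its values were seen. RefSeq names CG6372 as S-Lap1, CG4750 as loopin-1, CG32064 as S-Lap4 and CG4439 as S-Lap8. All 7 named elements of the family were tested and called in males, with further means of -6.02 for S-Lap2, -5.36 for S-Lap7 and -5.27 for S-Lap3. S-Lap2 had -6.02, -6.06, -5.84 and -6.17, and S-Lap3 had -6.76, -5.55, -4.31 and -4.46. The genes are related in sequence, and an oligonucleotide may take up signal from another copy. Among elements without a name, 2 had means of -7.76 and -7.44, close to these genes.

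Genes with female germline expression had a median ratio and a share of calls in females near those of all elements, but a smaller share of calls in males. Of the 350 elements of this list, 333 were tested, of which 70 (21.0%) were called higher in females and 24 (7.21%) higher in males, beside 19.3% and 22.9% of all elements tested. Their median ratio was 0.099, against 0.045 over all elements. The calls in females were 24, 41, 82 and 30 without replicates 1, 2, 3 and 4. Of the 289 list elements with values on all 4 arrays, 94 had both Cy5-male arrays above both Cy5-female arrays and 42 had the reverse, and with a term for the dye 95 of the list were called in females and 33 in males.

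The highest mean of the list was that of CG32682 (alpha-Man-Ia, a mannosidase of glycan processing on the X chromosome), with 0.85, 0.42, 1.13 and 1.13 and a mean of 0.88 ± 0.34 (*q* = 0.00331). Mip130, a subunit of a chromatin complex with Myb, had 0.59, 0.83, 0.54 and 0.58, with a mean of 0.63 ± 0.13 (*q* = 0.0059). Argos, a secreted inhibitor of the EGF receptor, was called in the other direction, with -1.57, -1.76, -0.53 and -1.17 and a mean of -1.26 ± 0.54 (*q* = 0.0019). These 3 genes were chosen after their values were seen.

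A list of oogenesis genes held more calls in males than in females. Of 31 tested elements, 12 (38.7%) were called higher in males and 4 (12.9%) higher in females, beside 22.9% and 19.3% of all elements tested, with a median of -0.15. The count in males was between 11 and 15 when each array was left out, while that in females was 1, 2, 5 and 3. Spindle A had too few values to be tested.

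The largest of these differences toward males were in genes for proteins that bind or transport RNA. Exuperantia had a second element, with -2.34, -2.02, -1.50 and -2.89, beside the one at -6.62. Arrest, a translational repressor of oskar RNA, had -3.0, -3.19, -2.18 and -2.86, with a mean of -2.81 ± 0.44 (*q* = 1.04e-05). Orb2, a protein of the CPEB family that regulates translation and acts in spermatogenesis as well, had -2.63, -1.84, -1.91 and -2.10, with a mean of -2.12 ± 0.36.

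The oogenesis elements called in females had smaller means. Slow border cells, a transcription factor of migrating follicle cells, had 0.55, 1.72, 0.01 and -0.17, with a mean of 0.53 ± 0.85 (*q* = 0.14). Chorion factor 2, a zinc finger protein, had 0.46, 0.38, 0.82 and 0.35, with a mean of 0.50 ± 0.22 (*q* = 0.0236). The means of egghead, a glycosyltransferase, and Septin-1, a cytoskeletal GTPase, were 0.44 and 0.25. Yolkless, the yolk receptor of the oocyte and a defining marker of the ovary, was not called, with a mean of 0.26 ± 0.32 (*q* = 0.161).

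The largest named differences toward females were about 2-fold. Of the 12 named elements with the largest means and the same sign on all 4 arrays, 8 lie on the X chromosome. Among all named elements tested and given a chromosome, 375 were X-linked and 1832 autosomal. The study listed some named elements for their sex bias on these same arrays. The highest was CG14624, an X-linked gene, with 2.04, 1.57, 0.67 and 1.51 on replicates 1 to 4 and a mean of 1.45 ± 0.57 (*q* = 0.00104). Cytochrome P450-4d1, an X-linked oxidase, had 1.58, 0.81, 1.16 and 1.33, with a mean of 1.22 ± 0.32 (*q* = 5.04e-04). Sxl, at 1.16, was among these 12.

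Lysozymes, enzymes that digest bacterial walls, were 2 of the 12. Lysozyme X had 1.18, 2.50, 0.81 and 0.40, with a mean of 1.22 ± 0.91, and Lysozyme S had 1.25, 2.12, 0.31 and 0.55, with a mean of 1.06 ± 0.81. Both were higher on each array with females in Cy5 than on each array with males in Cy5. The lysozyme genes are a cluster of similar copies, and their elements may share signal.

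The other elements of the 12 had means between 0.89 and 1.16. They were CG14052 (1.16), CG15251 (1.10), Ribosomal protein L17 (1.00), CG5966 (0.95), CG32645 (0.94), CG10650 (0.90) and CG31775 (0.89), of which the first 5 lie on the X chromosome. Among elements without a name, 1 had a mean of 2.26, with 2.90, 4.30, 0.67 and 1.16, and another a mean of 1.36.

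These elements varied with the dye orientation. In 7 of the 12, both arrays with females in Cy5 lay above both arrays with males in Cy5, and in 2 the order was the reverse, while over all 8298 elements with values on 4 arrays the counts were 1894 and 1961. Among elements called in females and measured on 4 arrays, the counts were 495 and 238 of 1517. The mean of each of the 12 holds both orientations equally, and all of them remained called with a term for the dye in the limma fit.

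**Figure D3:**
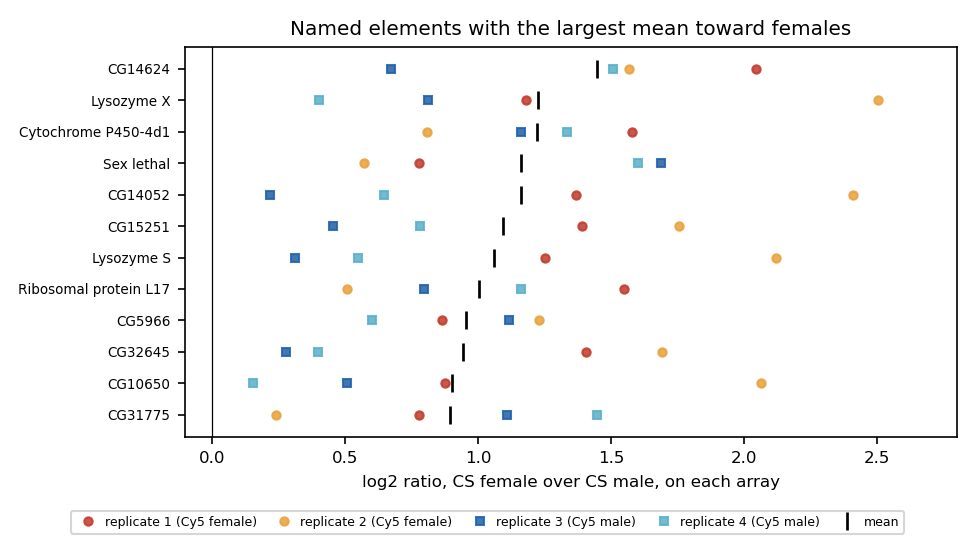
Log2 ratio of CS females over CS males on each array for the 12 named elements with the largest mean toward females, with circles for arrays with females in Cy5, squares for arrays with males in Cy5 and a bar for the mean. All values lie above 0, and the means run from 0.89 to 1.45.

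Genes of cuticle and pigment, which epidermal cells express during metamorphosis, were called in both directions. Of 40 tested elements, 15 were called in females and 5 in males, beside 19.3% and 22.9% of all elements, with a median of 0.12. The elements of this list and of those below could be named only through the study's tables. Of the 1254 tested elements named in neither germline list, 29% were called in females and 11.3% in males. The counts in females were 1, 5, 18 and 11 without replicates 1, 2, 3 and 4, and those in males were 3, 2, 9 and 3. Of 37 elements on 4 arrays, 16 had both Cy5-female arrays above both Cy5-male arrays and 7 the reverse. The elements for Cuticular protein 5C, 97Eb and 12A and Larval cuticle protein 1 had too few values to be tested.

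Resilin, a rubber-like protein of elastic cuticle, had 0.70, 0.65, 0.98 and 0.39, with a mean of 0.68 ± 0.24 (*q* = 0.00694). Yellow, an X-linked gene for black pigment, had 1.06, 2.39, -0.37 and 0.43, with a mean of 0.88 ± 1.16 (*q* = 0.0874), so that the spread between arrays was larger than the mean. Cuticular protein 50Ca had a mean of 0.65 ± 0.72, and obstructor-A, a chitin-binding protein, a mean of 0.59 ± 0.54.

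The 5 elements called in males were those for Dopa decarboxylase, ebony, Pupal cuticle protein, pale and Cuticular protein 31A, the last of which is named after its value was seen. Dopa decarboxylase, which makes dopamine, had -2.58, -1.92, -1.77 and -2.09, with a mean of -2.09 ± 0.35 (*q* = 2.90e-05). Ebony, which couples dopamine to beta-alanine, had -1.52, -0.96 and -1.10 on 3 arrays, with a mean of -1.19 ± 0.29 (*q* = 0.00179). Pale, the tyrosine hydroxylase that acts before Dopa decarboxylase, had -0.02, -1.0, -0.15 and -0.55, with a mean of -0.43 ± 0.44 (*q* = 0.0842), so that the spread between arrays was as large as the mean, and its means lay above 0 in Berlin (2.10) and *tud* progeny (1.88). Pupal cuticle protein had a mean of -0.46 ± 0.19. Ebony also belongs to the study's female germline list.

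Muscle genes showed no common direction. Of 21 tested elements, 4 were called in females and 4 in males (19% each), beside 19.3% and 22.9% of all elements tested, with a median of 0.056. The highest mean was that of flightin, a protein of thick filaments in flight muscle, with 0.60, 0.88, 0.53 and 0.08 and a mean of 0.52 ± 0.33 (*q* = 0.0328). TpnC4, Myosin light chain 2 and Limpet had means of 0.29, 0.26 and 0.25. The calls in females were 1, 2, 6 and 2 without replicates 1, 2, 3 and 4, and those in males 4 or 5.

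The muscle elements called in males had larger sizes. Alpha actinin 3, an actin cross-linker, had -4.83, -4.54, -4.13 and -3.92, with a mean of -4.36 ± 0.41 (*q* = 1.20e-06). Muscle protein 20, an actin-binding protein that the study also lists among female germline genes, had -1.88, -1.86, -0.96 and -2.0, with a mean of -1.68 ± 0.48. Lasp, an actin-binding LIM protein, and Actin 87E had means of -1.43 ± 0.32 and -1.04 ± 0.13. All their values lay below those of every muscle element called in females, which follows largely from sorting the elements by call.

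Larval serum proteins, the storage proteins that the fat body makes before pupation, differed among themselves. Larval serum protein 1 beta, encoded on an autosome, had 1.00, 0.48, 0.92 and 0.82, with a mean of 0.80 ± 0.23 (*q* = 0.00271). Larval serum protein 1 alpha, encoded on the X chromosome, had -0.84, -0.99, -1.58 and -0.95, with a mean of -1.09 ± 0.33 (*q* = 0.000965). Larval serum protein 1 gamma had a mean of 0.02 ± 0.23 and was not called. The subunits are related in sequence, so that their elements may share signal.

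Of the other fat body genes, brummer, a lipase of fat storage, and Glycerol 3 phosphate dehydrogenase were called in females, with means of 0.32 and 0.29. Those not called were Fat body protein 1 (0.17), Fat body protein 2 (-0.02), Transferrin 1 (0.03), LpR1 (0.08) and Ornithine aminotransferase precursor (0.19). In all, 3 of 10 elements were called in females and 1 in males, beside 19.3% and 22.9% of all elements tested. Among elements named in neither germline list, the shares were 29% and 11.3%. With replicate 1 or replicate 4 left out, 1 element was called in females.

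Immune genes were called in females for 7 of 25 tested elements (28%) and in males for 1 (4%), beside 19.3% and 22.9% of all elements tested, with a median of 0.163. The share in females was close to that of elements named in neither germline list, of which 29% were called in females and 11.3% in males. Besides the lysozymes, Melanization Protease 1, which acts in the darkening of wounds, had 0.29, 0.52, 0.37 and 0.76, with a mean of 0.48 ± 0.21 (*q* = 0.0264). Drosomycin-2, an antifungal peptide gene, had 2.02, 2.38, -0.27 and -0.09, and was called at a mean of 1.01 ± 1.38 (*q* = 0.0904) with both Cy5-female arrays far above both Cy5-male arrays. Drosomycin-like was called in males, with a mean of -0.38 ± 0.55. The calls in females were 3, 4, 10 and 4 without replicates 1, 2, 3 and 4, and the element for Immune induced molecule 10 had too few values to be tested.

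Genes that respond to ecdysone, the steroid hormone of metamorphosis, were called in females for 6 of 22 tested elements (27.3%) and in males for none, beside 19.3% and 22.9% of all elements tested, with a median of 0.082. Among elements named in neither germline list, 29% were called in females and 11.3% in males. Ecdysone-inducible gene L2, which encodes a secreted insulin-binding protein, had 0.92, 0.35, 0.05 and 0.75, with a mean of 0.52 ± 0.39 (*q* = 0.0432). Eip93F, a transcription factor, had a mean of 0.50 ± 0.65, Ice, a caspase of programmed cell death, 0.36 ± 0.28, and 1 of 4 elements for broad, a transcription factor of the pupal stage, 0.34 ± 0.22. The calls in females were 1, 3, 6 and 3 without replicates 1, 2, 3 and 4. Elements for 5 Ecdysone-induced genes of the 71E cluster had too few values to be tested.

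Proteasome subunits, which degrade proteins in all cells, were called in both directions. Of 28 elements, 11 were called in males and 2 in females, beside 22.9% and 19.3% of all elements, with a median of -0.162. The lowest mean was that of Proteasome p44.5 subunit (Rpn6), with -0.44, -1.01, -0.75 and -0.19 and a mean of -0.60 ± 0.36 (*q* = 0.0232). Prosbeta3, Mov34 and Rpn2 had means of -0.52, -0.50 and -0.50, and each of their values was below 0. Those called in females were Proteasome beta2 subunit, with -0.05, 0.74 and 0.93 on 3 arrays, and Rpn12, with a mean of 0.33. Leaving out each array gave 8, 8, 12 and 10 calls in males and 0, 1, 4 and 0 in females.

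**Figure D4:**
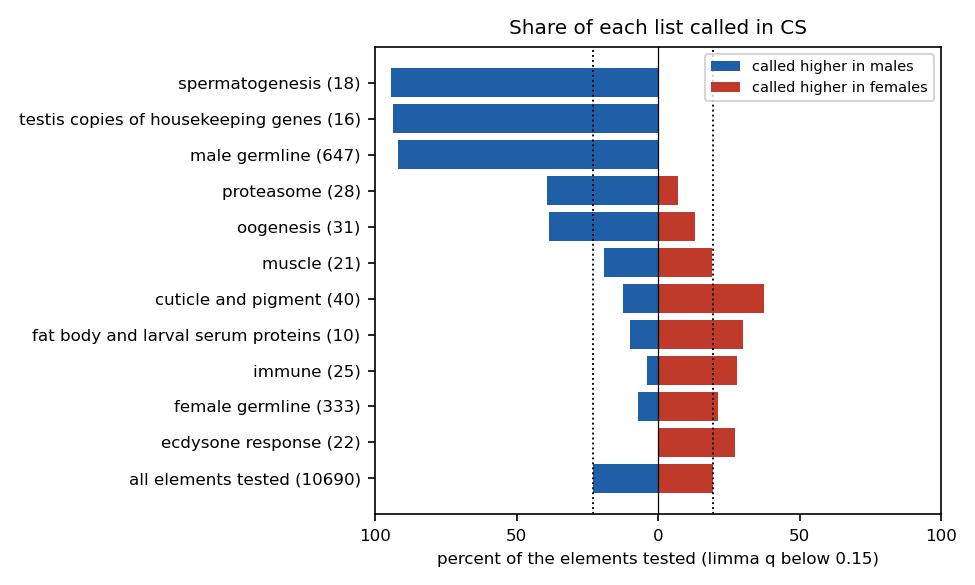
Percent of the tested elements of each list that were called higher in CS males (left, blue) or higher in CS females (right, red) at a limma *q* value below 0.15, with the number of elements tested in parentheses and dotted lines at the shares over all elements (22.9% and 19.3%). The male germline list (92.0%) and the spermatogenesis and testis copy lists stand furthest to the left. Elements named in neither germline list, not drawn, were called in males for 11.3% and in females for 29%.

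Several elements of a gene gave the same direction in most cases. Of 40 genes with more than 1 tested element, all elements lay on the same side of 0 in 31, and the median range within a gene was 0.233. A range over 1 was found in 5 genes, all higher in males and named here for that range. Besides exuperantia, they were CG15109 (-5.50 and -2.29), CG33293 (-3.07 and -0.12), Jupiter, a microtubule-associated protein (-2.11 and -0.22), and Syntaxin Interacting Protein 2 (-3.72 and -2.62). The elements may read different transcripts of a gene, or another gene, and this was not tested.

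Named genes on the X chromosome had a higher median ratio than named genes on autosomes on each of the 4 arrays. The median over 375 X-linked elements minus the median over 1832 autosomal elements was 0.223, 0.233, 0.184 and 0.172 on replicates 1 to 4, with a mean of 0.203 ± 0.03 (SD, n = 4). The exact sign-flip test gave a two-sided p = 0.125, which is the smallest p that 4 arrays allow. Named elements are a selection, since the study listed some of them for their sex bias on these arrays. Over elements named through its time course clusters alone, the difference was 0.079, and over named elements outside both germline lists it was 0.11, an alternative chosen after seeing the data.

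Of the 375 X-linked elements tested, 115 were called in females and 82 in males, with a median of 0.129. The chromosome arms 2L, 2R, 3L and 3R held 426, 420, 453 and 524 tested elements. They had 72, 66, 84 and 93 calls in females and 161, 151, 163 and 196 in males, with medians between -0.066 and -0.038. Over all named elements tested, 19.6% were called in females and 34.1% in males. Of 641 placed male germline elements, 63 (9.83%) were X-linked, and 59 of these were called in males with a median of -1.94. Of 329 placed female germline elements, 57 (17.3%) were X-linked. Over all named elements tested and given a chromosome, 375 were X-linked and 1832 autosomal.

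Few elements were called for a sex difference that differed between CS and Berlin. Mean ratios correlated at 0.908 across the 6726 elements measured in both strains on 3 or more arrays, and at 0.869 without the male germline list. A limma contrast of CS minus Berlin called 139 elements (2.07%), with 73 (1.09%) lower and 66 (0.981%) higher in CS. The median difference over all elements was -0.11, and after centering of the arrays 163 were called, 53 lower and 110 higher. The count was 31, 62, 214 and 5 without CS replicates 1 to 4 and 249, 38, 276 and 145 without Berlin replicates 1 to 4.

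CG14624 and pale were among the named elements whose ratio differed between the strains. CG14624 had a mean of 1.45 in CS and 4.12 in Berlin (difference -2.67, *q* = 0.0498). Pale had means of -0.43 and 2.10 (difference -2.53, *q* = 0.0615), and Larval serum protein 1 alpha of -1.09 and 0.41 (difference -1.50, *q* = 0.0615). Beta-Tubulin at 85D was further toward males in CS, at -2.51 against -0.58 (difference -1.94, *q* = 0.0498), and Roc1b was nearer to 0, at -1.10 against -2.61. With the arrays scaled, CG14624 (limma *q* = 0.318), pale (0.214) and Roc1b (0.214) were no longer called. Larval serum protein 1 alpha and beta-Tubulin at 85D were still called (*q* = 0.0949 each).

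The male germline list had medians of -1.44 in CS and -1.54 in Berlin over 548 elements, of which 9 were lower and 29 higher in CS. In the female germline list, 3 of 283 were lower in CS and none was higher. Of the cuticle and pigment elements, 3 of 34 were lower in CS, and their median was 0.097 in CS and 0.717 in Berlin.

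The male germline list had a median ratio near 0 in *tud* progeny, a property for which the study had chosen its members. Mean ratios correlated at 0.226 across 5842 elements, and at 0.277 without the male germline list. The contrast of CS minus *tud* progeny called 1383 elements (23.7%), with 672 (11.5%) lower and 711 (12.2%) higher in CS. With the replicate number as a block it called 1991, 912 lower and 1079 higher in CS. The counts of calls in the male germline, female germline, spermatogenesis and cuticle lists moved by less than 1.5 times under the block. Those in smaller lists moved more: from 5 to 10 in the immune list, from 2 to 5 in the fat body list and from 5 to 9 in the ecdysone list. Without CS replicate 4 it called 899, and without *tud* replicates 1, 2 and 3 it called 489, 850 and 880. In the sample descriptions of *tud* replicates 2 and 4, fields disagree on the sex of channel 2, and the ratios were used as deposited.

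Of the 274 male germline elements with enough values in both, 204 were called, 202 of them lower in CS, with medians of -0.84 in CS and -0.04 in *tud* progeny. All 6 spermatogenesis elements that could be compared were lower in CS. Male-specific RNA 87F had a mean of -5.26 in CS and 0.09 in *tud* progeny (difference -5.35, limma *q* = 1.73e-05). Beta-Tubulin at 85D had means of -2.51 and 0.04 (difference -2.55), and boule of -1.63 and 0.04 (difference -1.67). Tomboy40 had means of -1.76 and -0.04 (difference -1.72).

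Most of the strongest differences toward males had no value at all in *tud* progeny, where an element is left empty if neither sex passed the authors' intensity filter. Of the elements called in CS males, 1168 (47.6%) had no value on any *tud* array, beside 21.2% of all elements tested and 15.1% of those called in CS females. The share was 72.2% among elements higher in males by at least 1 and 84.9% among those higher by at least 2. It was 8 of 18 in the spermatogenesis list, 11 of 16 among testis copies, 8 of 333 in the female germline list, and 9 of 12 and 0 of 12 among the named elements with the largest differences toward males and females.

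Genes of other lists differed as well. Lasp and Muscle protein 20, both toward males in CS, had means of 0.47 and 0.18 in *tud* progeny, with differences of -1.89 (*q* = 0.000432) and -1.85 (*q* = 0.00263). Arrest and orb2 had means of -0.14 and -0.15, with differences of -2.66 and -1.97. Dopa decarboxylase, ebony, alpha actinin 3 and exuperantia had too few *tud* values for the contrast.

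Some named genes were higher in females in *tud* progeny than in CS. Yellow, for which that paternal X and sex cannot be told apart, had means of 0.88 in CS and 5.46 in *tud* progeny (difference -4.59, *q* = 0.00145). In Berlin its mean was 4.28 ± 4.56 on 3 arrays, and CS minus Berlin was not called (difference -3.40, limma *q* = 0.364). CG14624 had means of 1.45 in CS and 3.84 in *tud* progeny (difference -2.39, *q* = 0.00912), and CG32645 of 0.94 and 3.57 (difference -2.63, *q* = 0.0475). Larval serum protein 1 alpha had means of -1.09 and 1.39 (difference -2.48, *q* = 0.000185). Of the 34 cuticle and pigment elements compared, 18 were called and 15 of these were lower in CS, with medians of 0.17 in CS and 0.711 in *tud* progeny.

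In the female germline list, 77 of 288 elements were called, 63 higher and 14 lower in CS, with medians of 0.098 and -0.096. Of the sex determination genes, roX1 lay further toward males in *tud* progeny, at -7.82 (difference 3.14, *q* = 0.00114), while roX2 had means of -3.68 in CS and -3.72 in *tud* progeny. The called Sxl element had means of 1.16 and 2.08 (difference -0.92, *q* = 0.0593), and tra of 0.37 and 0.58, which was not called (*q* = 0.413).

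**Figure D5:**
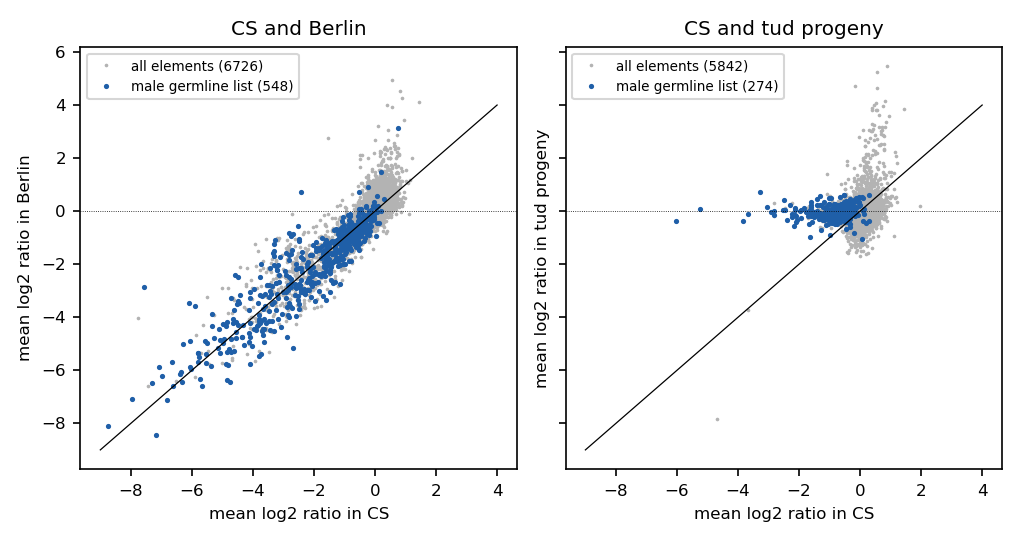
Mean log2 ratio of females over males in CS (horizontal) against Berlin (left, 6726 elements) and *tud* progeny (right, 5842 elements), with the male germline list in blue, the line of equal ratios and a dotted line at 0. Male germline elements follow the line in Berlin and lie near 0 in *tud* progeny.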

How the data were processed

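Spots were scanned in GenePix by the authors, who required at least 1 channel to have over 75% of pixels 1 SD above background and then applied a global loess within arrays in LIMMA. The values deposited by the authors are the resulting log2 ratios for each element on each array, in which swapped dyes had been brought to a common direction. Whether background was corrected or arrays were scaled to each other is not given in the sources used here, and a ratio understates a difference where 1 sex lies near background. About 30 pupae went into an RNA, of which 30 µg were labeled.

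Elements labeled as controls (32) were left out. The paper counts more control spots than this in its oligonucleotide set, so that others may remain among the elements tested and in the shares over all elements. CS ratios were tested against 0 with the moderated statistic of limma 3.58.1 (R 4.3.3), with Storey *q* values (share of true nulls 0.486 by the smoother over lambda from 0.05 to 0.95 in steps of 0.05), called below 0.15. CS minus Berlin and CS minus *tud* progeny were limma contrasts over elements with values on 3 or more arrays of each. The X chromosome was compared with the autosomes by an exact sign-flip test over arrays.

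From the supplementary tables of the study, 2357 elements with 2301 CG numbers were named here. Of these, 2325 were found in the RefSeq gene table of the Release 6 plus ISO1 MT assembly, and 2324 were given a chromosome. The time course clusters gave names to 1055 elements, far fewer than the genes that the paper reports in them. Named elements are thus an incomplete set. Named in the text are the elements of 10 lists, in full where a list holds at most 20 elements and otherwise up to 4 called ones in each direction, and the 12 named elements with the largest means in each direction among those called with the same sign on 4 arrays. Members and lists were chosen with earlier results of these data known. The germline lists of the study were chosen on its time course arrays, not analysed here, for levels above those of the other CS sex and of *tud* progeny of the same sex. Its somatic sex-biased set was chosen on these arrays among others, so that neither the sizes nor the signs of these lists are independent evidence.

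The replicate numbers of CS and *tud* progeny were checked for pairing: deviations from the group means of the arrays with the same number correlated at 0.323, 0.273, 0.423 and 0.327 over 3583 elements. Each pair was above 0.1, though *tud* replicates 1 and 2 correlated best with CS replicates 2 and 1 (0.509 and 0.395). The numbers also mark the dye orientation, which replicates 1 and 2 share, so that pairing and dye cannot be told apart. Contrasts with *tud* progeny are given without a replicate block unless the block is named.

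On simulated data with 200 changed elements, the CS test recovered 95% of changes of 1 (log2) and 100% of changes of 2, with 13.3% of calls false, over 10690 elements. For CS minus Berlin these shares were 68%, 94% and 16.1% (6726 elements), and for CS minus *tud* progeny 87%, 100% and 15.4% (5842 elements). The simulation changed a far smaller share of elements than the 42.3% called in CS. Its sizes of 1 and 2 also lie above the median of 0.40 among elements called in females. These shares thus do not describe the calls reported here. Alternatives were Benjamini-Hochberg adjustment, a *q* value below 0.05, other minimum numbers of arrays, centering, scaling, a dye term, array weights, an unmoderated test, a joint fit of the 28 arrays, replicate blocks and leaving out each array. For the X chromosome, elements outside both germline lists and leaving out each array were added after seeing the data. Python and matplotlib drew the figures.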

Additional observations from a re-analysis of the deposited data

Results flagged for a closer look

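On 1 of the 4 CS arrays, 6 of the 105 named elements with values on all 4 lay far from the other 3. Chance sets about 1 in 20 such groups apart, which is close to this number. The values were -0.25 for Fat body protein 1 on replicate 2, -0.959 for Muscle protein 20 on replicate 3, -0.432 for Sperm-specific dynein intermediate chain 1 on replicate 2, -3.537 for tomboy20 on replicate 3, -0.571 for Roc1b on replicate 1 and -1.444 for Ribosomal protein S5b on replicate 3. All but Fat body protein 1 were called higher in males.

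The sex difference of CS differed from that of Berlin in 139 elements by the limma contrast. Among named elements, the CS ratio was lower for CG14624 (difference -2.674), pale (-2.533), Larval serum protein 1 alpha (-1.499), Larval serum protein 1 gamma (-0.998), beta-Tubulin at 85D (-1.938) and Hsp60D (-1.354), and higher for Roc1b (1.509). Of these, only Larval serum protein 1 alpha and beta-Tubulin at 85D remained called after scaling of the arrays (limma *q* = 0.0949 each).

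It differed from that of *tud* progeny in 1383 elements. For germline genes the CS ratio was lower for Male-specific RNA 87F (-5.345), beta-Tubulin at 85D (-2.553), Sperm-specific dynein intermediate chain 2 (-2.178) and 1 (-0.866), tomboy40 (-1.723), boule (-1.669), janus A (-0.676), arrest (-2.662) and orb2 (-1.968). It was higher for slow border cells (0.98), Septin-1 (0.556) and Chorion factor 2 (0.433), genes of oogenesis.

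In genes of other tissues the CS ratio was lower for yellow (-4.587), CG32645 (-2.629), Larval serum protein 1 alpha (-2.48), CG14624 (-2.391), pale (-2.307), Lasp (-1.893), Muscle protein 20 (-1.851), Cuticular protein 50Ca (-1.847), Drosomycin-like (-1.585), Sxl (-0.918), Cytochrome P450-4d1 (-0.595), Limpet (-0.595), Fat body protein 2 (-0.567) and Proteasome p44.5 subunit (-0.482). It was higher for roX1 (3.138), Melanization Protease 1 (0.968), Lysozyme X (0.872) and Proteasome beta2 subunit (0.617). All 30 named elements that differed from *tud* progeny remained called with a term for the dye, while strain and the paternal X chromosome of female *tud* progeny cannot be told apart from the missing germline.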

How the results depend on the processing

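Benjamini-Hochberg adjustment called 2890 elements in CS, 870 of them in females, and 23 female germline elements in females. A *q* value below 0.05 called 2403, 531 and 14, array weights called 3140 in females, and an unmoderated test called 34 female germline elements. Leaving out each array gave 2004 to 5252 calls in CS, 486 to 2477 in females, 1518 to 2775 in males, 497 to 565 for the male germline list in males and 24 to 82 for the female germline list in females. The X chromosome minus autosome difference was 0.079 over time course clusters alone, 0.355 with means in place of medians, and 0.11 outside both germline lists.

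For CS minus Berlin, 10 elements were called at a *q* value below 0.05, 276 with values on 2 or more arrays, 6 after scaling, 377 with a dye term, 23 by an unmoderated test, 1204 with array weights, and 5 to 276 when each array was left out. For CS minus *tud* progeny, Benjamini-Hochberg adjustment called 797, a *q* value below 0.05 called 465, values on all 4 arrays 879, a dye term 2254, and leaving out each array 489 to 1392. The cause of these shifts was not tested.

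With the replicate block, CS minus *tud* progeny called 1991 elements and 41 of the 62 named elements compared, against 30 without it, and none was lost. For Berlin, same-numbered deviations correlated at 0.237, -0.0224, 0.201 and 0.0561. Not every pair was above 0.1, and the numbers were not taken to pair the arrays, though same-numbered arrays also share the dye orientation. With the replicate block 189 elements were called, with 7 of 87 named elements called in both fits.

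The means that changed sign were near 0 and not called over all 4 arrays. With 1 array left out, they ran from -0.077 to 0.112 for Larval serum protein 1 gamma, from -0.114 to 0.136 for Transferrin 1 (-0.11 with array weights), from -0.117 to 0.151 for Fat body protein 2 (0.016 after scaling and 0.037 with array weights), from -0.065 to 0.18 for LpR1, from -0.471 to 0.088 for CG3056, from -0.01 to 0.229 for YT521-B (-0.002 with array weights) and from -0.072 to 0.195 for Ribosomal protein S15Ab. Of the 111 named elements, those that lost their call numbered 17 with Benjamini-Hochberg adjustment, 19 at a *q* value below 0.05 and 12 with an unmoderated test. Channel intensities over background were not analysed here, and 4 arrays limit the precision.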
